A study of Mus musculus with 96 samples.

Results

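The 10 core genes of the mammalian circadian clock, Arntl, Clock, Per1, Per2, Per3, Cry1, Cry2, Nr1d1, Nr1d2 and Dbp, were followed in mouse embryonic fibroblasts (MEFs) after a serum shock. They were taken by gene symbol from the 15895 genes of the expression table, and all 10 were found. The cells were primary MEFs of Cf-1 embryos at embryonic day 13, without any transgene or deletion in the labels. They were starved in 0.5% fetal calf serum (FCS) for 36 h and then brought to 20% FCS at 0 h. RNA was sequenced in 2 time courses, called Cycle 1 (63 libraries, -1 to 38 h) and Cycle 2 (32 libraries, -1 to 27 h), with each time sampled by 1 library in a Cycle. Starved cells are the -1 and 0 h libraries of both Cycles (4 in all), and 29 hours after serum were sampled in both Cycles. The number of embryos behind a culture and whether the Cycles were separate cultures are not given in the sources used here, so a p-value covers only the spread between these libraries. Nothing ensures that all cells of a dish moved in step. Values are a normalized signal in which every library has the same total, and each library held 4352233 to 12551910 reads in the listed genes. The fibroblast label was checked with Col1a1, Col1a2, Col3a1, Vim, Thy1, Pdgfra and Pdgfrb, whose summed signal was 149460 to 482000. The lists for macrophages, endothelium, epithelium, neurons and muscle summed to between 33.1 and 1667 in a library. The lists moved over the same hours as the members. The median sum of the fibroblast markers was 406130 in starved cells, 199920 at 10 to 15 h and 167860 at 22 to 27 h. That of the neuron markers was 425, 768 and 456, that of the endothelial markers 230.1, 123 and 80.0, that of the macrophage markers 313, 269 and 191, that of the epithelial markers 188, 219 and 112, and that of the muscle markers 1178, 759 and 1053. Their part in the results was not tested.

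The clock is a delayed negative feedback loop. ARNTL (also called BMAL1) and CLOCK bind together to E-box sequences and activate the Per and Cry genes, whose proteins then return to the nucleus and repress that activation. In a second loop ARNTL and CLOCK activate Nr1d1 and Nr1d2, which encode the nuclear receptors REV-ERBalpha and REV-ERBbeta, and these repress Arntl through ROR response elements (ROREs). Dbp is a direct E-box target and encodes a transcription factor that acts through D-box sequences. Cultured fibroblasts carry such clocks, but the cells of a dish drift out of step. A pulse of serum brings them together and induces Per1 and Per2 as immediate early genes.

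The promoters with a matching sequence are shown because they hold letters of the elements through which the members are known to act on each other. They are taken from the RefSeq promoter table (build GRCm38.p6), which holds 250 bases before to 50 bases after each start. Each was found in NCBIM37, the build of the files (mm9), where only the chromosome named for it was searched. The table has 13 promoters for 9 members, and Per2 has none. The letters searched on both strands were the E-box CACGTG, the noncanonical E-box CACGTT, the D-boxes TTATGTAA and TTACGTAA, the RORE core TAGGTCA, the cyclic AMP response element TGACGTCA and the CArG box. No member's window held the cyclic AMP response element, the CArG box or TTACGTAA. Capitals mark a match, and AACGTG is CACGTT read on the other strand. Each sequence is given 5′ to 3′ on the strand of its gene.
Per1, chr11:68912201-68912500, plus strand: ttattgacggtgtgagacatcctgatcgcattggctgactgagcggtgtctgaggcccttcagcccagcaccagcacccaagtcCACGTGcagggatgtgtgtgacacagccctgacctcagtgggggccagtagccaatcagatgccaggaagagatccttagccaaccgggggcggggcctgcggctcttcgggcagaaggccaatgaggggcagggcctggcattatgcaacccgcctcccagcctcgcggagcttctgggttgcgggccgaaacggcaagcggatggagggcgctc
Cry1, chr10:84647750-84648049, minus strand: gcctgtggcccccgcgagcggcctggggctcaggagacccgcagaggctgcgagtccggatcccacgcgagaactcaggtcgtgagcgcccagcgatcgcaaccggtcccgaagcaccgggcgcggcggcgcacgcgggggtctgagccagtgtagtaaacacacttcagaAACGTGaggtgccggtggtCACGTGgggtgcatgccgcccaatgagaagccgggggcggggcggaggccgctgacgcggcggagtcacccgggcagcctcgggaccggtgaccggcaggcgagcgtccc
Cry2, chr2:92274177-92274476, minus strand: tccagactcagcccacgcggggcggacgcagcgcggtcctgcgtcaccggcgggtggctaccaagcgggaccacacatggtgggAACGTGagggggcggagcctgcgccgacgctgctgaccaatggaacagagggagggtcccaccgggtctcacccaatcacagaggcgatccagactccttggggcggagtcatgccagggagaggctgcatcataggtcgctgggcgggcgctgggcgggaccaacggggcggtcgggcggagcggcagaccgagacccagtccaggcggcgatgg
Nr1d1, chr11:98636642-98636941, minus strand: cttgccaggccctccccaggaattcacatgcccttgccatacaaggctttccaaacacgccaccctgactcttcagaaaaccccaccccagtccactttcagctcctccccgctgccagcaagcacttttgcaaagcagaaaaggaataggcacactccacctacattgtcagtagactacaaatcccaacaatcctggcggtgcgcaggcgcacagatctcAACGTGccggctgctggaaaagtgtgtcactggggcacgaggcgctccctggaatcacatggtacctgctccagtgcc
Per3, chr4:150418725-150419024, minus strand: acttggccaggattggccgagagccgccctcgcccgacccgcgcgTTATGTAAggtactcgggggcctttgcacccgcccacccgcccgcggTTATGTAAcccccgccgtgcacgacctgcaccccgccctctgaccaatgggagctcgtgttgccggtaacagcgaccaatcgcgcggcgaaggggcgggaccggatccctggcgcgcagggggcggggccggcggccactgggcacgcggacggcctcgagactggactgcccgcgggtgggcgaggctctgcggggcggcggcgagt
Arntl, chr7:120350775-120351074, plus strand: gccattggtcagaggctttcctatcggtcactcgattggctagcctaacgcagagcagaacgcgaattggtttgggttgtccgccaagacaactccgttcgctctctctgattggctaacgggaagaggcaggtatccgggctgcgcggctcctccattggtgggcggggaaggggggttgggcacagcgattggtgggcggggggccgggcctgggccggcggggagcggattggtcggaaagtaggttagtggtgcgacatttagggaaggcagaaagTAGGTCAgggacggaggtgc

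The Per1 window held an E-box and the Cry1 window an E-box and a noncanonical E-box. The Cry2 and Nr1d1 windows each held a noncanonical E-box, the Per3 window 2 copies of the D-box TTATGTAA, and the Arntl window the RORE core 31 bases past its start. Over all 32851 promoters of the table, 7.15% held CACGTG, 4.68% CACGTT, 0.938% TTATGTAA, 0.119% TTACGTAA, 2.61% TAGGTCA, 1.79% TGACGTCA and 1.63% a CArG box. The windows of Clock, Nr1d2 and Dbp, the other Per1 window and the other Arntl window held none of these letters. A match describes the sequence and does not show that a factor binds there.

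Some libraries stand apart or go against their labels, and several results that rest on them are also given without them. In the libraries labelled 0 h, the immediate early genes Fos and Egr1 were already high. Fos was 914 at -1 h and 24883 at 0 h in Cycle 1, and 466 and 15149 in Cycle 2. Per1 moved with them, from 230.0 to 513 in Cycle 1 and from 195 to 355 in Cycle 2. In the other direction, the growth factor response genes Egr1 and Spry4 were low in the 33 to 38 h libraries of Cycle 1 and in the 27 h library of Cycle 2. Spry4 was 476 at 32 h and 15.8 at 34 h in Cycle 1, and 619.6 at 26 h and 15.7 at 27 h in Cycle 2. The 24.5 h library of Cycle 1 also lay off its neighbours, with Nr1d2 at 85.4 between 332 at 24 h and 299 at 25 h. The part of these libraries in the results beside which they are named was not tested beyond leaving them out.

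The first comparison asks which clock genes depart from the starved level at any hour sampled in both Cycles. Of the 10 members 8 were called, and their largest change was a rise in 4 and a fall in 4. Called means an adjusted p under 0.05 in limma's F test over the 29 hours, fitted over all genes on log2(value + 1), and a mean log2 change that was above 1 in size in at least 1 of these hours. The background is high, since 46.3% of all genes were called, 14% with a rise and 32.4% with a fall. Rises were 30.2% of the called genes as deposited and 40.4% after rescaling by the trimmed mean of M-values (TMM). Arntl, Per2, Cry1 and Cry2 had a rise and Per1, Per3, Nr1d2 and Dbp a fall. Clock and Nr1d1 were not called. The reads were counted on both strands, so reads of a gene and of an overlapping gene on the other strand cannot be told apart. Exons overlap in this way over 263 bases of Nr1d1 and Thra, 491 bases of Dbp and Sphk2 and 295 bases of Cry2 and D930015M05Rik. In this population of cells, fewer cells with a transcript and less transcript per cell cannot be told apart.

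**Figure D1:**
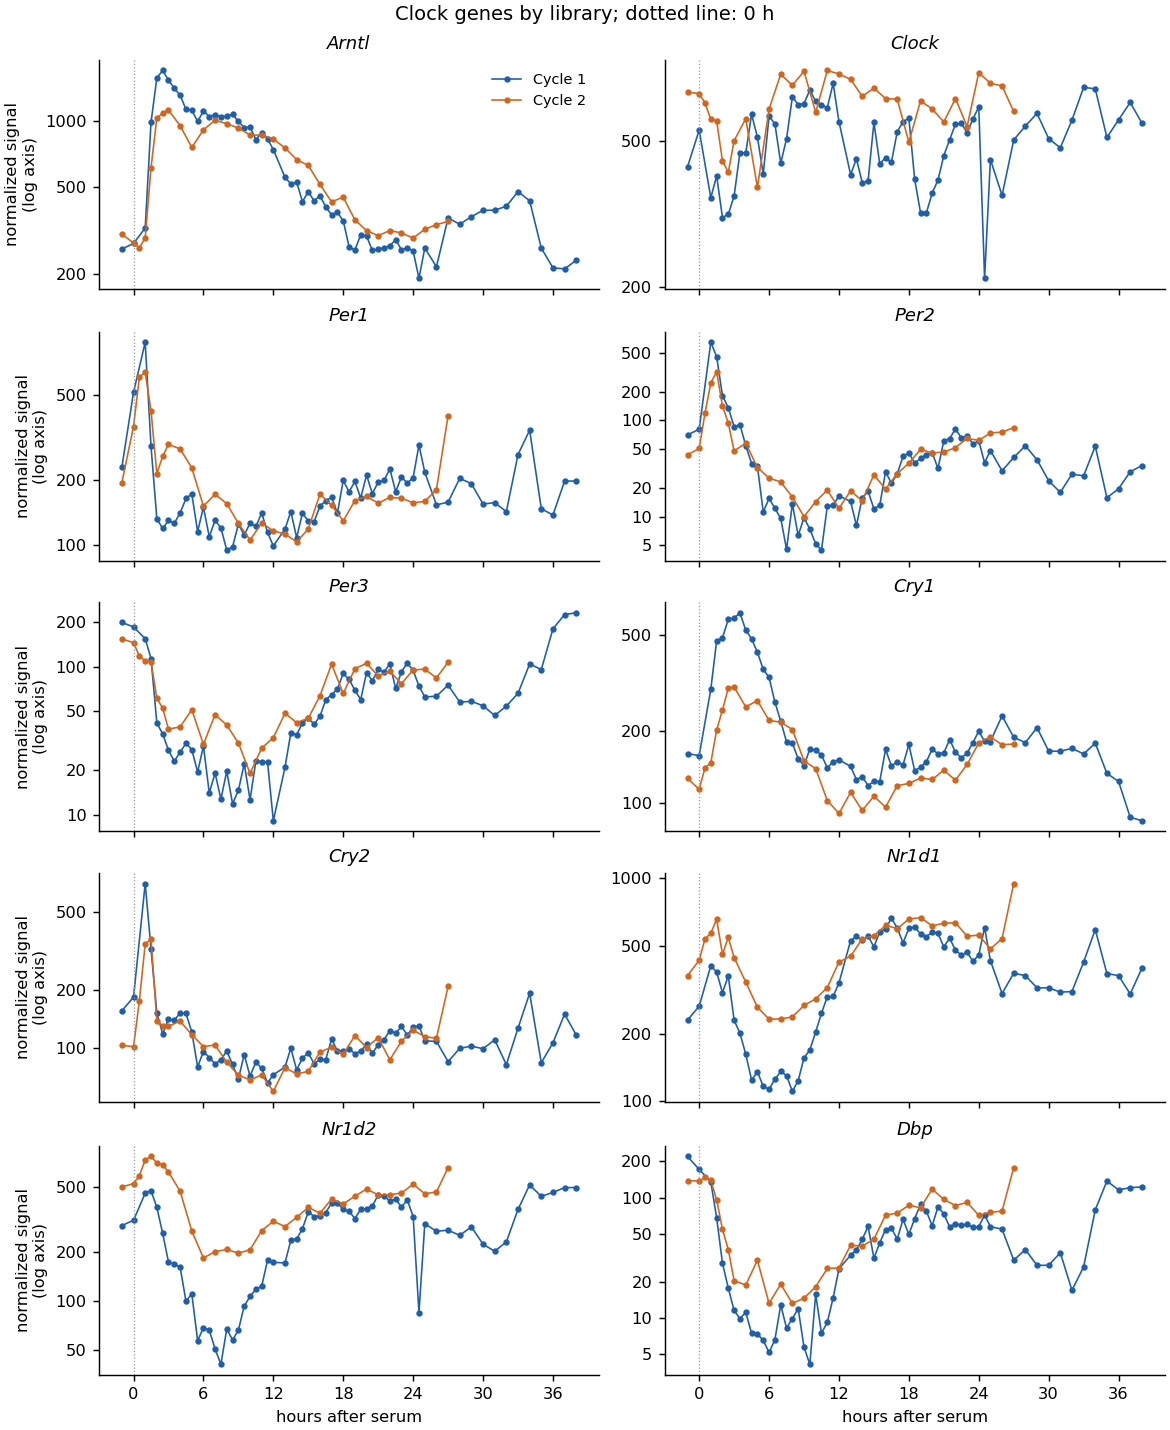
Normalized signal (log axis) of each clock gene against hours after serum, 1 point per library, Cycle 1 in blue and Cycle 2 in orange. Per2 and Cry2 peak at 1 to 1.5 h, Arntl is highest at 2.5 to 3 h, and Dbp and Per3 reach their lowest values at 8 to 12 h.

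Among the activators, Arntl (chr7:120350979-120457636, plus strand) rose after serum. Its starved values were 261 and 277 in Cycle 1 and 305 and 278 in Cycle 2. At 1 h it was 325 and 293, and at 2.5 h 1699.9 and 1084. The starved libraries did not overlap with those from 1.5 to 12 h, where Arntl was at least 612. The log2 change at 2.5 h was 2.27 ± 0.21 (SE, 2 libraries against 4), 2.66 in Cycle 1 and 1.89 in Cycle 2, with an adjusted p of 1.61e-13 over all hours. It was later lower again, at 256 and 293 at 24 h. Clock, its partner, stayed between 406 and 659 at 4 to 9 h in Cycle 1, against 425 and 535 in starved cells. In Cycle 2 it was 374 to 774 in the same hours, against 679 and 673. Its largest mean change, -0.66 ± 0.31 at 2.5 h, came with an adjusted p of 0.577 over all hours.

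Per2 (chr1:93312561-93355907, minus strand), a repressor of the loop, had an early spike and then a trough. Starved values were 70.6 and 81.1 in Cycle 1 and 43.9 and 51.1 in Cycle 2. At 1 h Per2 was 652 in Cycle 1 and 246 in Cycle 2, a log2 change of 2.72 ± 0.39 with an adjusted p of 1.23e-11 over all hours. Both 1 h libraries were above every starved library. By 9 h it was 9.76 and 9.96, below every starved library. The lowest Per2 value, 4.47 at 10.5 h of Cycle 1, rested on 6 reads, and its exact Poisson interval at 0.95 confidence is 1.64 to 9.73, for counting error only. Rise and trough were of similar size on this scale, and the largest change became the trough at 10 h without either starved library of Cycle 2 or with a pseudocount of 0.25. At 22 h Per2 was 81.6 and 52.2.

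Per1, which is also induced by serum, was 877 at 1 h of Cycle 1 and 636 at 1 h of Cycle 2, above all 4 starved libraries. At 2 h it was 132 and 214. At 14 h Per1 was 108 and 103, below all 4 starved libraries, with a log2 change of -1.5 ± 0.36 and an adjusted p of 0.000213 over all hours. This direction depends on the baseline. With the -1 h libraries alone, the largest change of Per1 was a rise of 1.82 at 1 h and the change at 14 h was -1.00. With TMM rescaling the largest change was also at 1 h, with a rise of 1.44.

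Per3 had no spike. Starved values were 199.9 and 186 in Cycle 1 and 155 and 146 in Cycle 2. It was 27.4 and 38 at 3 h and 12.7 and 19.1 at 10 h, with no overlap with starved cells at either hour. The log2 change at 10 h was -3.37 ± 0.38, with an adjusted p of 3.49e-08 over all hours. The lowest value, 9.13 at 12 h of Cycle 1, rested on 5 reads.

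The cryptochromes, which repress together with the Per proteins, rose at different hours. Cry2 was 156 and 183 in starved cells of Cycle 1 and 103 and 102 in those of Cycle 2. At 1 h it was 699 and 342 and at 2 h 152 and 137. The change of Cry2 at 1 h was 1.89 ± 0.23 (log2), with an adjusted p of 1.2e-08 over all hours. Cry1 was 161 and 158 in starved cells of Cycle 1 and 127 and 115 in those of Cycle 2. It was 297 and 147 at 1 h and 586 and 304 at 3 h. The change of Cry1 at 3 h was 1.60 ± 0.34 (log2), with an adjusted p of 7.74e-05 over all hours. The hours of these maxima are those of the means over both Cycles, and the difference in timing was not tested.

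In the second loop, Nr1d2 fell and Nr1d1 was not called. Nr1d2 was 292 and 315 in starved cells of Cycle 1 and 503 and 528 in those of Cycle 2. At 7 h it was 51.1 and 202, below every starved library, and the log2 change was -1.95 ± 0.58 with an adjusted p of 0.011 over all hours. Nr1d1 was 231 and 267 in starved cells of Cycle 1 and 366 and 429 in those of Cycle 2. It was 113 and 234 at 6 h and 596 and 657 at 18 h. The adjusted p of Nr1d1 over all hours was 0.000101, and its largest change, 0.99 ± 0.37 at 18 h, missed the limit of 1. It was called with a rise when the -1 h libraries alone were the baseline, where that change was 1.1, with TMM rescaling, and without either starved library of Cycle 2. Without either starved library of Cycle 1 it was called with the opposite direction, a fall at 6 h, at -1.09 with the -1 h library left out and -1.02 with the 0 h one left out.

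Dbp, the output gene, had the largest fall of the 10. Its starved values were 219 and 171 in Cycle 1 and 137 and 138 in Cycle 2. At 2 h it was 28.5 and 54.4, and at 6 h 5.15 and 13.2. All of these were below every starved library. The log2 change at 6 h was -4.14 ± 0.51, -4.99 in Cycle 1 and -3.29 in Cycle 2, with an adjusted p of 6.33e-08 over all hours. The lowest value of Dbp, 4.1 at 9.5 h of Cycle 1, rested on 5 reads, with a Poisson interval of 1.33 to 9.58.

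The change was next averaged over windows of hours, to follow the order of the events. At 1 to 3 h, 3 members were higher than in starved cells and 2 lower (adjusted p under 0.05 and above 1 in size), against 5.11% and 11.4% of all genes. Arntl was higher by 1.66 ± 0.14, Per2 by 1.56 ± 0.27 and Cry1 by 1.25 ± 0.23 (log2). Dbp changed by -1.85 ± 0.35 and Per3 by -1.41 ± 0.26. Per1 was not called, with -0.14 ± 0.24, and the sign turned with TMM rescaling (0.094) and with the -1 h baseline (0.36).

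At 4 to 9 h Arntl was the only member called higher, by 1.85 ± 0.14, and 4 were lower, against 7.23% and 17.7% of all genes. These 4 were Dbp (-3.66 ± 0.34), Per3 (-2.49 ± 0.26), Nr1d2 (-1.49 ± 0.39) and Per2 (-1.48 ± 0.26). Per1 was called lower too with edgeR on the recovered reads (-1.06), and without the -1 h library of Cycle 1 (-1.09) or of Cycle 2 (-1.17). Cry1 was called higher beside Arntl with edgeR (1.02). At 10 to 15 h the counts were again 1 higher and 4 lower, against 6.56% and 15.9%. Per1 took the place of Nr1d2 among the lower genes. The Per1 value was -1.37 ± 0.24, and with the -1 h baseline it was -0.86 and no longer called. Per2 was at -1.99 ± 0.26, Per3 at -2.61 ± 0.26 and Dbp at -2.55 ± 0.34.

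At 16 to 21 h and 22 to 27 h fewer members were called, while Nr1d1 was farthest above the starved level, at 0.93 ± 0.25 and 0.66 ± 0.25, short of the limit of 1. At 16 to 21 h none was called higher and 2 lower, against 6.79% and 17.2% of all genes. These were Per3, at -1.08 ± 0.26, and Dbp, at -1.17 ± 0.34. Per3 was -0.99 with TMM rescaling and -0.93 with edgeR on the recovered reads, short of the limit of 1. Nr1d1 passed as the 1 higher member with TMM rescaling (1.02), with the -1 h baseline (1.03) and without either starved library of Cycle 2, where it was 1.001 without the -1 h and 1.08 without the 0 h library. Without the -1 h library of Cycle 2 Per1 was also called lower, at -1.03. At 22 to 27 h none was called higher and Dbp alone was lower, at -1.23 ± 0.34, against 6.24% and 18.6%. With edgeR the Dbp value was -0.93 and not called. Per3 was called lower too with the -1 h baseline (-1.02) and without the -1 h (-1.02) or the 0 h library (-1.05) of Cycle 2. The median change of the members was 0.35 at 1 to 3 h, -0.85 at 4 to 9 h, -0.79 at 10 to 15 h and -0.26 at 16 to 21 h. The median of all genes in these windows was -0.26, -0.22, -0.13 and -0.13. TMM rescaling raised the median of all genes by 0.22 at 1 to 3 h and by 0.09 to 0.16 in the later windows. Higher genes were 31% of those called at 1 to 3 h and 29% of those at 4 to 9 h, and 51.3% and 39.2% after TMM rescaling.

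**Figure D2:**
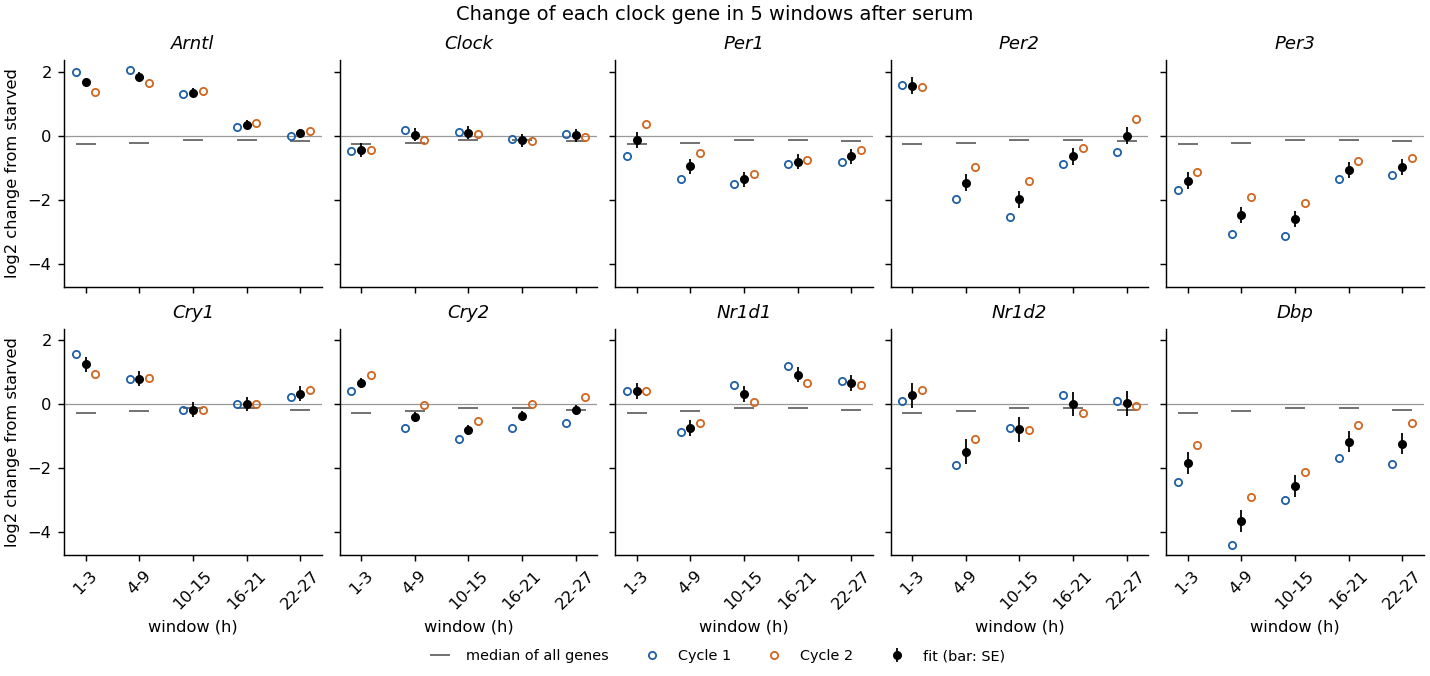
Log2 change from starved cells of each clock gene in 5 windows after serum. Black points are the fit with its SE, open circles the 2 Cycles, and grey bars the median of all genes. Arntl lies above 1 up to 10 to 15 h, where Per1, Per2, Per3 and Dbp lie below -1. The fit of Arntl stays above 0 in the later windows, at 0.34 and 0.07.

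A comparison within the time after serum takes its differences without the starved libraries. They are still part of the fit and enter the spread behind its errors and p-values. Between 10 to 15 h and 22 to 27 h, 7 members rose and 1 fell (limma, adjusted p under 0.05), against 10.5% and 14.6% of all genes. All 8 differences were above 0.5 in size, which 4.13% of all genes were as rises and 7.98% as falls. Arntl fell by 1.28 ± 0.10 on the log2 scale. In Cycle 2 it was 628 to 864 at 10 to 15 h and 293 to 348 at 22 to 27 h, without overlap. In Cycle 1 the ranges of Arntl were 429 to 938 and 192 to 362, also without overlap.

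Per2 rose by 1.98 ± 0.19, the largest of the rises. Its values were 4.47 to 18.3 and then 29.9 to 81.6 in Cycle 1. In Cycle 2 Per2 was 12.2 to 27.2 and then 52.2 to 84.2, so the windows overlap in neither Cycle. Dbp was 7.45 to 57.6 and then 30.1 to 71.4 in Cycle 1, which overlap, and 18.1 to 45 and then 71.1 to 177 in Cycle 2, which do not. Per3 was 9.13 to 44.9 and then 62.7 to 106 in Cycle 1, and 19.1 to 48.6 and then 77.1 to 108 in Cycle 2, with no overlap in either.

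Per3 rose by 1.63 ± 0.18, Dbp by 1.31 ± 0.24, Nr1d2 by 0.81 ± 0.27 and Per1 by 0.72 ± 0.17. Cry2 rose by 0.63 ± 0.11 and Cry1 by 0.50 ± 0.16. Adjusted p values ran from 9.72e-12 for Arntl to 0.0274 for Nr1d2. Clock (-0.08 ± 0.15, adjusted p = 0.74) and Nr1d1 (0.33 ± 0.18, adjusted p = 0.171) did not pass. With the Cycle as a replicate block Nr1d1 passed, with the same difference and an adjusted p of 0.0194. The 2 Cycles had the same sign in all 10 members. Without the 27 h libraries the count stayed at 8.

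A rhythm was then described by a 24 h cosine and sine (a 24 h harmonic) with a linear trend and a Cycle term, fitted to the 79 libraries from 4 h on. Of the 10 members 8 passed (limma F test, adjusted p under 0.05 and a fitted amplitude, peak minus mean, above 0.25), against 29% of all genes. Without the 33 to 38 h libraries of Cycle 1 and the 27 h library of Cycle 2, 9 passed, against 25.5%. Without the 24.5 h library of Cycle 1, 8 passed, beside 4506 of all 15895 genes. The amplitude was 1.01 ± 0.08 (log2, SE) for Per2, 0.95 ± 0.07 for Dbp, 0.71 ± 0.06 for Nr1d1 and 0.61 ± 0.08 for Nr1d2. It was 0.57 ± 0.03 for Arntl, 0.55 ± 0.07 for Per3, 0.53 ± 0.04 for Cry1 and 0.27 ± 0.05 for Per1. The median amplitude of the members was 0.56, against 0.18 over all genes. Clock, with 0.21 ± 0.05, and Cry2, with 0.24 ± 0.04, passed the adjusted p but not the amplitude limit. Cry2 was at 0.36 ± 0.04 and passed without the late libraries, and Per1 was at 0.21 and did not pass in a fit from 8 h. With the libraries from 4 to 38 h in Cycle 1 and from 4 to 27 h in Cycle 2, at most about 1 period and a part of the next was seen.

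The fitted peaks fell in an order from the second loop to the cryptochromes and then to the activators. Nr1d1 peaked at 18.5 ± 0.311 h (SE), Nr1d2 at 18.9 ± 0.484 h and Dbp at 19.1 ± 0.307 h. Nr1d2 lies within the sum of the errors of each of the other two. Per3 followed at 20.7 ± 0.493 h and Per2 at 23.1 ± 0.309 h. Per1, at 0.565 ± 0.721 h of the next period, and Cry2, at 1.16 ± 0.696 h, lie within the sum of their errors, and so do Arntl and Clock. Cry1 was the last of the repressors at 2.83 ± 0.285 h. Arntl, at 8.64 ± 0.208 h, and Clock, at 9.51 ± 0.826 h, peaked on the other side of the period from Nr1d1, Nr1d2 and Dbp. The standard errors treat libraries as independent around the curve. A fitted peak need not be the hour of the highest value. Over 4 to 27 h Arntl was highest at 4 h (1312) in Cycle 1 and at 7 h (1009) in Cycle 2. Cry1 was highest at 4 h (522) and 5 h (267), and Cry2 at 4 h (152) and 27 h (207). Leaving out the late libraries put Per1 at 23.6 ± 0.411 h, Cry2 at 23.9 ± 0.322 h, Per3 at 21.4 ± 0.296 h and Cry1 at 2.17 ± 0.28 h.

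**Figure D3:**
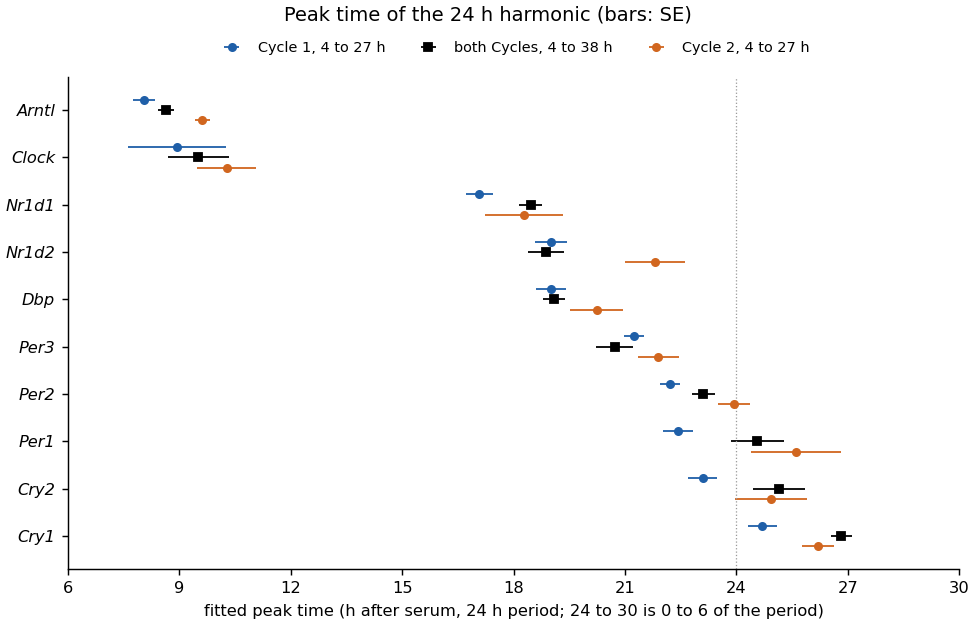
Fitted peak time of the 24 h harmonic of each clock gene (h after serum, bars are the SE) for both Cycles together (black) and for Cycle 1 (blue) and Cycle 2 (orange) over 4 to 27 h. The orange point lies to the right of the blue point for all 10 genes.

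Each Cycle was also fitted alone over 4 to 27 h. The fits of Cycle 2 hold its 27 h library, which stood apart. No peak or amplitude of Cycle 2 alone was fitted without it. The fits of Cycle 1 hold its 24.5 h library, which also stood apart, and none of Cycle 1 alone was made without that library. The peak was later in Cycle 2 than in Cycle 1 for 10 of 10 members, by 0.662 h for Per3 to 3.17 h for Per1, with a median of 1.54 h. The members share their libraries, so these are not 10 independent observations. Arntl peaked at 8.05 ± 0.304 h in Cycle 1 and 9.62 ± 0.204 h in Cycle 2. Per2 peaked at 22.2 ± 0.267 h and 23.9 ± 0.435 h, and Dbp at 19 ± 0.396 h and 20.2 ± 0.71 h. The harmonic differed between the Cycles (limma, interaction with Cycle over the shared hours) in 5 of 10 members, Arntl, Per1, Per3, Nr1d1 and Nr1d2, against 13.6% of all genes. Nr1d1 had an amplitude of 0.81 ± 0.06 in Cycle 1 and 0.35 ± 0.09 in Cycle 2, with an adjusted p of 0.000654. Nr1d2 had 1.05 ± 0.14 and 0.38 ± 0.13, with an adjusted p of 5.11e-05. With a trend of its own in each Cycle, Per1 (adjusted p = 0.0791) and Per3 (adjusted p = 0.229) no longer passed. Some of the cell type lists also differed in level between the Cycles. Over 4 to 27 h the summed macrophage markers were 139 to 320.3 in Cycle 1 and 307 to 619 in Cycle 2, and the summed neuron markers 308 to 835 and 184 to 348. Fibroblast markers summed to 151000.0 to 326660.0 and 159860.0 to 303400.0. The median sums in Cycle 1 and Cycle 2 were 105 and 113 for endothelial, 822 and 911 for muscle and 204 and 124 for epithelial markers. The part of these lists in the differences between the Cycles was not tested.

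The period could not be fixed from these hours. Periods from 16 to 34 h were tried in steps of 0.5 h, and the range that an F criterion at 0.95 does not separate from the best is given. Arntl was fitted best by 24.5 h (range 23.5 to 25.5 h), Dbp by 22.5 h (21.5 to 24 h) and Per2 by 22.5 h (21.5 to 24.5 h). Without the late libraries the same genes gave 28 h (24.5 to 34 h), 25 h (22.5 to 28.5 h) and 34 h (21.5 to 34 h). The range held 24 h for 6 of 10 members in the full fit and also for 6 without the late libraries. It reached an end of the periods tried for 3 and 6 members. It did not hold 24 h for Per3 (19.5 h, range 19 to 20.5 h), Nr1d2 (21.5 h, range 20 to 23.5 h), Nr1d1 (28 h, range 26 to 32.5 h) and Cry1 (34 h, range 32 to 34 h), the last at the end of the scan. In Cycle 2 alone the range reached an end for all 10. All these fits hold a linear trend. Without a trend Arntl gave 34 h (33.5 to 34 h), Dbp 22 h (20.5 to 23.5 h) and Per2 28.5 h (25.5 to 31.5 h). The range then held 24 h for 3 of 10 members. It held 24 h for 6 with a quadratic trend, where Per2 gave 34 h (28.5 to 34 h), and for 7 with a trend of its own in each Cycle.

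The last hours of each Cycle are given by library. Arntl was 338 at 28 h and 476 at 33 h of Cycle 1, and then 214 at 36 h and 232 at 38 h, each a single library. Dbp was 16.9 at 32 h, 78.9 at 34 h and 137 at 35 h. Per3 was 54.3 at 32 h and 232 at 38 h, its highest value after serum in Cycle 1. Per1 was 142 at 32 h, 341 at 34 h and 147 at 35 h, and Nr1d1 311, 589.7 and 374 at the same hours. In Cycle 2 Per1 was 181 at 26 h and 399 at 27 h, Nr1d1 537 and 948, and Dbp 77.3 and 177. In the same libraries Egr1 was 704 at 32 h and 66.4 at 34 h of Cycle 1, and 1598 at 26 h and 63.6 at 27 h of Cycle 2. The low growth factor response thus came with high Per1 and Nr1d1 in single libraries, at 34 h of Cycle 1 and 27 h of Cycle 2. Per1 and Nr1d1 were lower again at 35 h of Cycle 1, within the hours of low Egr1 and Spry4. Cry1 had its lowest value after serum in Cycle 1 in these hours, 84.8 at 38 h. The part of the low growth factor response in the values of the clock genes was not tested.

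**Figure D4:**
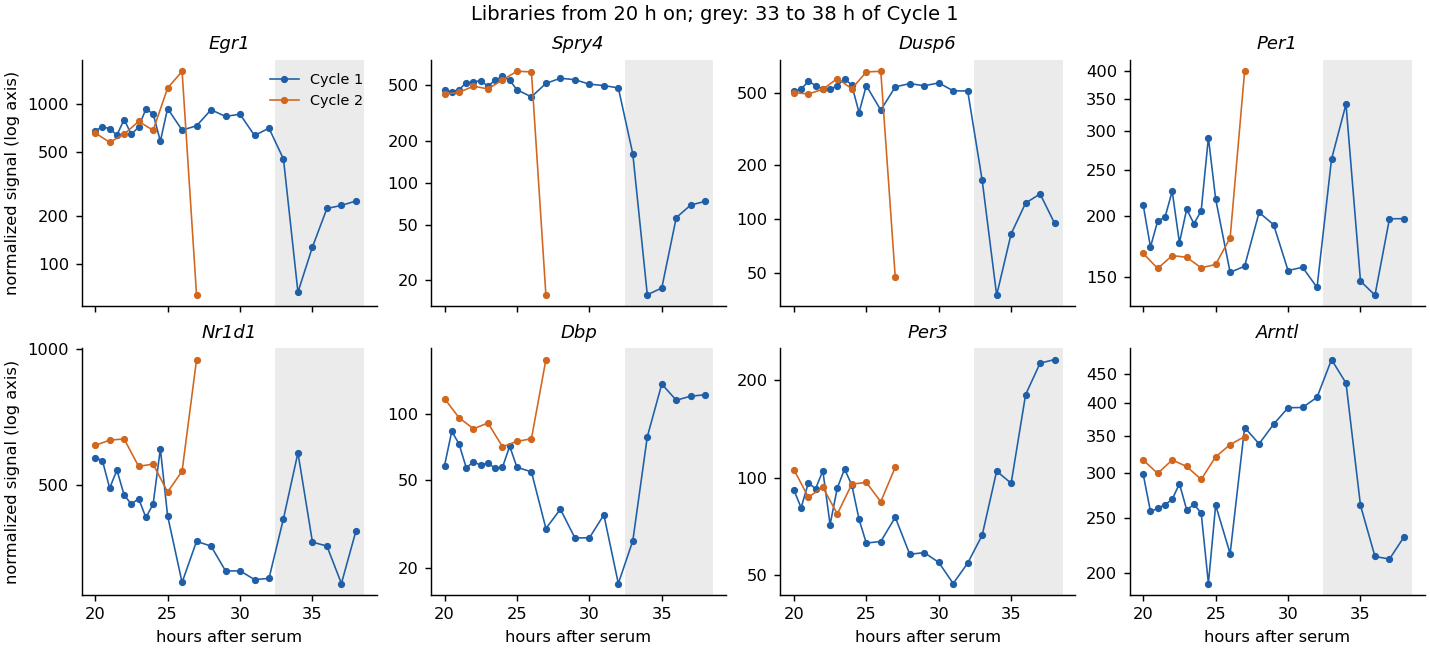
Normalized signal (log axis) of 3 growth factor response genes (Egr1, Spry4, Dusp6) and 5 clock genes in the libraries from 20 h on, Cycle 1 in blue and Cycle 2 in orange, with 33 to 38 h of Cycle 1 in grey. Spry4 is at 15.8 at 34 h of Cycle 1 and 15.7 at 27 h of Cycle 2, where Per1 and Nr1d1 are high.

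Of 25 further genes of the clock pathway, all in the table, 14 were called at some shared hour, 3 with a rise and 11 with a fall, beside the 46.3% of all genes. The rises were Bhlhe40 (2.24 ± 0.50 at 1 h), a repressor at E-boxes, Usp2 (1.57 ± 0.29 at 1 h), a deubiquitinase, and Rorb (2.91 ± 0.58 at 8 h), an activator at ROREs. Among the falls were the D-box activators Tef (-2.45 ± 0.35 at 8 h) and Hlf (-2.99 ± 0.69 at 13 h), which belong with Dbp to the PAR bZIP family. The repressors Ciart (-2.41 ± 0.45 at 9 h) and Bhlhe41 (-1.54 ± 0.43 at 10 h) fell too, as did Npas2 (-2.59 ± 0.45 at 24 h), a paralog of Clock. The others were Timeless (-1.93 ± 0.46), the kinase Wee1 (-1.25 ± 0.36), Nampt (-1.16 ± 0.27), Ppara (-2.63 ± 0.42) and the ubiquitin ligase genes Btrc (-1.25 ± 0.15) and Fbxl21 (-2.53 ± 0.48). Rorb, Hlf, Ciart, Fbxl21 and Ppara had a mean signal under 20, and 9 genes were called when such genes were left out.

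The harmonic passed in 12 of these 25 genes, and in 10 without the late libraries, against 29% and 25.5% of all genes. Tef peaked at 19.9 h, Wee1 at 18.8 h, Ciart at 21.9 h and Bhlhe41 at 23 h, between the peaks of Nr1d1 and Per2. Rora (8.45 h) and Arntl2 (9.87 h) peaked near Arntl and Clock, and Rorb (11.6 h), Ppara (12 h) and Npas2 (12.9 h) later than both. Bhlhe40 (1.82 h) and Usp2 (2.74 h) peaked near Cry1, and Timeless at 16.4 h. Arntl2 (adjusted p = 0.0764), Rora (adjusted p = 0.224) and Ppara (adjusted p = 0.0832), each with a mean signal under 20, did not pass without the late libraries, and the peak of Rora moved to 4.76 h. Nfil3, a repressor at D-boxes, passed there with a peak at 7.03 h. Between 10 to 15 h and 22 to 27 h, 4 of the 25 rose and 4 fell, against 10.5% and 14.6% of all genes. Tef (1.06 ± 0.16), Ciart (1.04 ± 0.21), Bhlhe41 (0.67 ± 0.20) and Wee1 (0.50 ± 0.17) rose. Among those that fell were Npas2 (-1.48 ± 0.21), Rorb (-1.54 ± 0.28) and the kinase Csnk1e (-0.24 ± 0.05).

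The genes whose course was most like that of 3 members were named by the smaller of the Pearson correlations in the Cycles, over 61 libraries of Cycle 1 and 29 of Cycle 2 from 1 h on, among 11882 genes with a mean of 20 or more. This is a description, since neighbouring hours are not independent and all genes share the libraries. For Dbp they were Tef (0.922), Dact3 (0.886), Mapk3 (0.884), Pdlim2 (0.883) and Pex19 (0.882). For Arntl they were Dmp1 (0.931), Plekha1 (0.922), Dusp10 (0.921), Lancl3 (0.913) and Mdga1 (0.905). For Per2 they were Cacna1g (0.859), Gas6 (0.846), Bhlhe41 (0.835), Zcchc5 (0.83) and Scara3 (0.83). Tef and Bhlhe41 are also in the pathway list.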

How the data were processed

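RNA of starved and serum-treated MEFs was sequenced (stranded mRNA libraries, single-end reads). Per the labels and the submitters' processing notes, the authors used CASAVA, STAR and HOMER with mm9, counting exon reads on both strands. The deposited values are a normalized signal per gene, scaled by the authors to the same total per library. By their names 95 of 96 columns belong to 1 library each, and the remaining 1 was not used. Between 94.2% and 96.2% of low values were whole multiples (within 5% of a step) of 1 read, which gave the depth. Of the genes, 12604 have the values of 1 transcript and 3291 others, Per1 and Cry2 among them, averages over transcripts. In these, isoforms cannot be separated.

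Tests were run over all 15895 genes with limma 3.58.1 (R 4.3.3) on log2(value + 1), so fold changes of low genes are understated, with Benjamini-Hochberg adjustment. An alternative used edgeR 4.0.16 on reads recovered in 93 libraries, rounded to whole numbers, and called 6544 genes and 8 members at any shared hour. Peaks and periods were fitted by least squares in Python 3.11.15 with scipy 1.17.1, numpy 2.4.6 and pandas 2.3.3, and plots were drawn with matplotlib 3.10.9. Steps were tested on simulated data. The differences between Cycle 1 and Cycle 2 were correlated between hours over 11882 genes, with a median of 0.437 over 465 pairs of hours. Of these pairs 435 were over 0.1, and the lowest was -0.07. The differences between the Cycles were thus partly shared over most hours. The tests by hour still held no Cycle term, and a fit with the Cycle as a replicate block is given as an alternative.

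The members and lists were chosen with earlier results of these data known. Named genes are the 10 members, genes of the pathway list that were called or passed the harmonic, and the 5 genes most like each of Arntl, Per2 and Dbp. Csnk1e and Nfil3 were named after their values were seen, as was the set of Fos, Egr1, Spry4 and Dusp6. The values of 1 further gene are not reported here. Alternatives covered pseudocounts, filters, scaling, the trend, the period and left-out libraries. The baseline of -1 h alone and the fits without 27 h or the late libraries were added after seeing the data.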

Additional observations from a re-analysis of the deposited data

Results flagged for a closer look

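The 24 h harmonic differed between the Cycles, by limma's interaction test over the shared hours, for Nr1d2 (adjusted p = 5.11e-05), Nr1d1 (adjusted p = 0.000654), Arntl (adjusted p = 0.00357), Per1 (adjusted p = 0.0184) and Per3 (adjusted p = 0.033). Without 27 h the same test gave 3.08e-05, 0.000257, 0.00263, 0.00453 and 0.0232. Arntl peaked at 8.05 h in Cycle 1 and 9.62 h in Cycle 2, and Per1 at 22.4 h and 1.6 h. Per3 had an amplitude of 1.05 in Cycle 1 and 0.65 in Cycle 2. These peaks and amplitudes come from fits of each Cycle alone, each with a trend of its own, that hold the 27 h libraries. The test held a trend common to both Cycles. With a trend of its own in each Cycle, Per1 and Per3 no longer passed it.

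The 0.5 h library of Cycle 2 has no partner in Cycle 1 and entered no comparison. In it 4 members were above every starved library. Per1 was 603, against 513 in the highest starved library, and Per2 was 119, against 81.1. Nr1d1 was 535, against 429, and Nr1d2 was 589.9, against 528.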

How the results depend on the processing

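Under every alternative that kept both Cycles, the counts of members were 8 or 9 at any shared hour and 8 or 9 for the later against the middle hours. For the harmonic they were 7 to 9. The harmonic called 10 members without Cycle 1 and 8 without Cycle 2. With 1 Cycle alone the tests by hour have 1 residual degree of freedom by construction. The test over all hours then calls nothing, and that of the later against the middle hours calls no member. Some window contrasts of these fits still call genes, on the same 1 degree of freedom, and those calls are not used. Over the fits that left out a starved library or a Cycle, the counts were 0 to 9 of the members, 0 to 7499 of all genes and 0 to 15 of the pathway list at any shared hour, and 0 to 8 members for the later against the middle hours. Of the pathway list 9 genes were called with a filter at a mean of 20, which removes 5 of the 14. A period of 20 h called 2562 genes in place of 4610, and a trend of its own in each Cycle left 3 members in the test between Cycles, both with the cause not tested. With the Cycle as a replicate block the count was 8 members at any shared hour, 9 for the later against the middle hours (Nr1d1 added) and 8352 of all genes. Without the replicate block the harmonic called 8 members. The differences between the Cycles were partly shared over most hours, and without a Cycle term they stay in the spread of the tests by hour. Signs turned in changes from starved cells that were not called. Per1 at 1 to 3 h was 0.094 with TMM rescaling, 0.36 with the -1 h baseline and -0.64 to 0.36 when a library or Cycle was left out. At 22 to 27 h Per2 was 0.12 with TMM, 0.16 with edgeR, 0.099 with the -1 h baseline and -0.52 to 0.52 in the fits with a part left out, and Clock was -0.037 with edgeR and -0.13 to 0.094. Nr1d2 was -0.033 with edgeR and -0.12 to 0.16 at 22 to 27 h, and -0.14 and -0.29 to 0.29 at 16 to 21 h. Cry1 at 16 to 21 h was -0.041 with the -1 h baseline and -0.089 to 0.073 with a part left out. With a part left out Clock was -0.13 to 0.18 at 4 to 9 h and -0.051 to 0.17 at 10 to 15 h, Cry2 -0.76 to 0.0049 at 16 to 21 h and -0.58 to 0.24 at 22 to 27 h, and Arntl -0.0046 to 0.14 at 22 to 27 h. Peak times were set against the SD of the fitted peaks of Cycle 1 and Cycle 2. They moved by more than this SD in 15 refits and by less in 145. This SD is wider than the standard error of the pooled peak in all members but Per3, for Per1 2.24 h against 0.721 h. A shift below it can thus exceed the standard error. Depth limits the troughs of Per2, Per3 and Dbp, which rest on few reads, and intervals cover counting error only.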
